A study of Homo sapiens with 24 samples.

Results

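The comparison described here set the platinum-resistant ovarian cancer cell line PEO4 against its drug-sensitive partner PEO1, both untreated, across all genes of the count table. It used 6 of the 24 RNA-seq libraries of the series, 3 of PEO1 and 3 of PEO4. They were chosen by the cell line, letter A and treatment that the labels give, and not by any measured value. Both lines are human high-grade serous ovarian carcinoma lines that were established from 1 patient, PEO1 while the disease still responded to cisplatin and PEO4 after resistance had arisen. These PEO1 cells carry an inactivating BRCA2 mutation and PEO4 cells have a working copy of the gene, although the labels give both the genotype WT. Neither line received any agent or transgene in these 6 libraries. The study's methods give sodium pyruvate as an addition to the medium in which these PEO1 and PEO4 cells were grown. The other 18 libraries are of PEO1 BRCA2+ cells, in which BRCA2 function is restored, and of PEO4 cells prepared beside them, untreated or treated with the G-quadruplex ligand pyridostatin. With 1 line on each side, BRCA2 status, the history of drug exposure, and any drift in culture cannot be told apart, and every fold change below describes these 2 lines.

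The 3 replicates per line are described as biological, and total counts ran from 32528913 to 63882077 per library. PEO4 replicate 1 stood further from its partners than any other library (chi-square per degree of freedom of 52.1 and 44.5, against 9.50 between the other 2 PEO4 libraries and 5.35 to 19.7 among PEO1 libraries), so calls that change and list counts that move by over 1.5 times without it are given beside the results. The 10 most counted genes took 4.41 to 4.77% of the counts in each library, and the table lists no mitochondrial genes. Of 28277 symbols listed, 15882 had enough counts to be tested. Levels below are CPM (counts per 1000000 counts of a library, after TMM scaling), which do not account for gene length and are compared between lines for 1 gene. Where genes are ranked by their difference in CPM, or their CPM summed, abundant and long transcripts weigh more. A gene was called when its edgeR adjusted p was under 0.05 and its log2 fold change, always PEO4 over PEO1, was over 1 or under -1.

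High-grade serous carcinoma arises from Müllerian epithelium of the fallopian tube, which is patterned by HOX transcription factors and held together by cadherins, keratins and claudins. Carcinoma cells can also switch on mesenchymal genes such as those for vimentin and fibronectin, and can keep interferon-stimulated genes, normally induced by viral infection, switched on without infection.

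In all, 2009 genes were higher in PEO4 (12.6% of those tested) and 2086 were lower (13.1%), which together made 25.8% of the genes tested. The difference was large for many of them. A log2 fold change beyond 3 was reached by 400 of the higher and 625 of the lower genes, and beyond 5 by 136 and 263. The 3 PEO1 and 3 PEO4 values did not overlap for 4068 of the 4095 called genes, compared with 67.9% of all tested genes. There were 84 higher genes with at most 3 counts in every PEO1 library and 170 lower genes with at most 3 counts in every PEO4 library. For such genes only a lower bound of the fold is given, computed against a floor of 3 counts per library. Calls were most frequent among genes of low level: 33.0% of genes under 1 CPM and 40.4% of those between 1 and 10 CPM were called, against 19% between 10 and 100 CPM and 20.4% above 100 CPM. Of 13950 protein-coding genes tested, 1606 were higher and 1877 lower, whereas of 1122 long non-coding RNAs 257 were higher and 145 lower.

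The plot of gene lists sets 57 groups of related genes side by side. The lists and their members were chosen with earlier results of these data known, so their shares are a description and not a test. Against the background of 12.6% and 13.1%, the highest shares on the higher side were those of the interferon-stimulated genes (96.6%) and of MHC class I and peptide loading (68.4%), and on the lower side those of the keratins (65%), the mesenchymal genes (63.6%) and the collagens (51.7%). Ribosomal proteins were called in either direction in 3.61% of members and nuclear genes of oxidative phosphorylation in 1.32%. The median log2 fold change over all tested genes was -0.01.

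**Figure D1:**
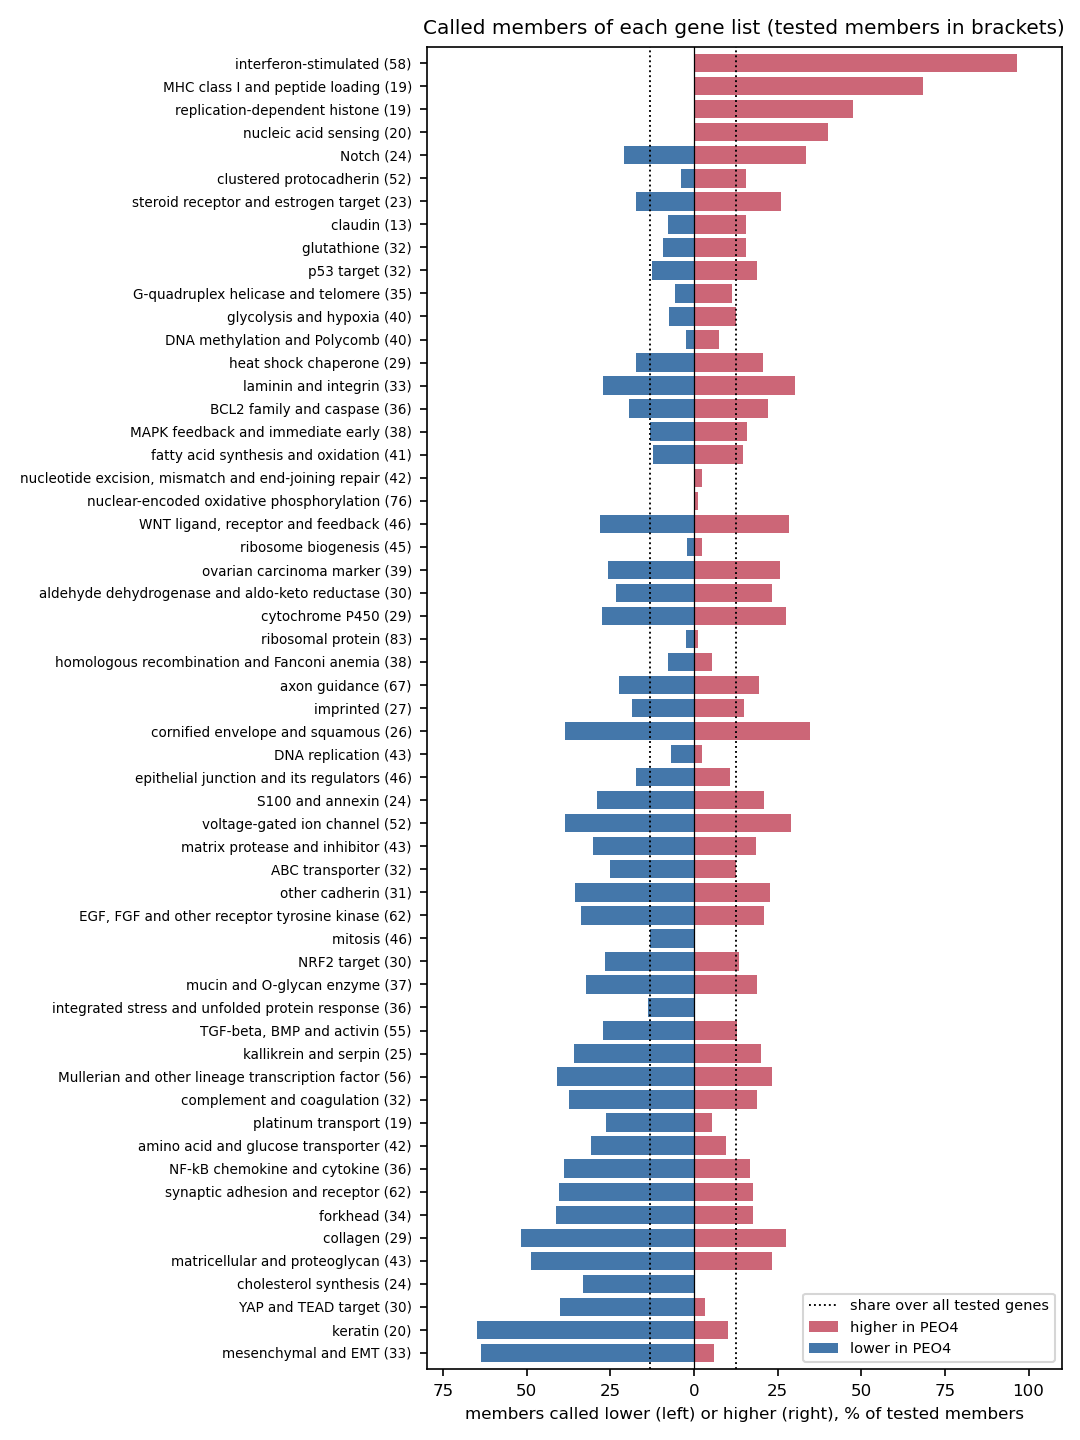
Share of the tested members of each gene list (x axis, percent) that was called higher (to the right) or lower (to the left) in PEO4 than in PEO1, for the 57 lists with at least 10 tested members, with the shares over all tested genes drawn as lines at 12.6% and 13.1%. The interferon-stimulated list reaches 96.6% higher with no member lower, the keratins reach 65% lower, and the mesenchymal genes 63.6% lower.

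BRCA2, which is needed to repair broken DNA by homologous recombination, measured 7.99, 8.57 and 8.15 CPM in PEO1 and 11.3, 16.1 and 13 CPM in PEO4. All PEO4 values were above all PEO1 values, but the difference (log2 fold change 0.70, standard error 0.144, edgeR adjusted p = 0.00097) was under the fold threshold, and the exact two-sided permutation test gave p = 0.1, the smallest that 3 libraries against 3 allow. The mutation is carried in the coding sequence, so RNA level does not read BRCA2 function. In the list of homologous recombination and the Fanconi anemia pathway, 2 of 38 tested members were higher and 3 lower. FANCE, a subunit of the Fanconi core complex, measured 4.16 ± 0.127 CPM in PEO1 and 9.35 ± 1.48 CPM in PEO4 (mean ± SD, n = 3 here and below; log2 fold change 1.17, standard error 0.157, edgeR adjusted p = 3.1e-05). NBN, which belongs to the MRN complex that senses double-strand breaks, measured 95.1 ± 5.77 CPM in PEO1 and 202 ± 8.13 CPM in PEO4 (log2 fold change 1.09, standard error 0.074, edgeR adjusted p = 7.5e-08). EXO1 and RBBP8, which both act in resection of DNA ends, were among the lower members. EXO1 measured 56.1 ± 3.67 CPM in PEO1 and 14.1 ± 2.05 CPM in PEO4 and RBBP8 644 ± 62.6 CPM in PEO1 and 214 ± 24.1 CPM in PEO4, with log2 fold changes of -1.99 and -1.59. BRCA1 was at 102 ± 9.63 CPM in PEO1 and 73.4 ± 5.1 CPM in PEO4 and PALB2, which joins BRCA1 to BRCA2, at 27.8 ± 1.46 CPM in PEO1 and 32.7 ± 3.73 CPM in PEO4, and neither was called. Nucleotide excision, mismatch and end-joining repair had 1 member higher of 42, or 2 without PEO1 replicate 1, and 0 lower. The 5 calls of the recombination list are 13.2% of its members, against 25.8% of all genes, and the list's higher count rose to 4 without PEO1 replicate 2.

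The labelled cell type, ovarian adenocarcinoma, was checked against markers of serous carcinoma and of other cells that a culture could hold. Lineage markers of this carcinoma were expressed in both lines. PAX8, the Müllerian transcription factor, measured 113 ± 6.83 CPM in PEO1 and 331 ± 22.2 CPM in PEO4 and was called higher, WT1 measured 117 ± 8.28 CPM in PEO1 and 182 ± 8.71 CPM in PEO4, MUC16, which encodes CA125, 584 ± 86.2 CPM in PEO1 and 894 ± 140 CPM in PEO4, and the epithelial adhesion molecule EPCAM 488 ± 17.9 CPM in PEO1 and 516 ± 33.7 CPM in PEO4. Of 39 tested ovarian carcinoma markers, 10 were higher and 10 lower, so the lines differed in which markers they carried. FOLR1, the folate receptor alpha, had values of 0.502, 0.374 and 0.338 CPM in PEO1 and 83.1, 65.7 and 77.4 CPM in PEO4 (log2 fold change 7.53, standard error 0.162, edgeR adjusted p = 3.2e-12). SCGB2A1, a secretoglobin, had at most 0.0837 CPM in any PEO1 library and 20.8, 13.1 and 16.6 CPM in PEO4. In the opposite direction, MUC4 measured 39.5 ± 6.2 CPM in PEO1 and 3.5 ± 0.234 CPM in PEO4 (log2 fold change -3.51, standard error 0.14, edgeR adjusted p = 6.2e-10) and MUC1 1.37 ± 0.363 CPM in PEO1 and 0.12 ± 0.0612 CPM in PEO4 (log2 fold change -3.62, standard error 0.483, edgeR adjusted p = 3.1e-05). MECOM, a zinc-finger transcription factor often amplified in this cancer, measured 27.8, 18.8 and 16.6 CPM in PEO1 and 0.0308, 0 and 0 CPM in PEO4, a fold of at least 283 towards PEO1. SOX17, CLDN6 and SCGB1D2 had too few counts to be tested.

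Markers of other cell types were mostly absent or low. PTPRC, CD3D, CD3E, MS4A1, HBA1 and HBB of blood cells, CDH5, KDR and TEK of endothelium, and DCN, LUM, COL3A1, PDGFRA and POSTN of fibroblasts were all too low to be tested. Among the tested members, fibroblast and smooth muscle markers were 2 higher and 3 lower of 6, blood markers 2 higher and 1 lower of 6, endothelial markers 1 higher of 6, and mesothelial markers 2 higher and 2 lower of 7. The higher counts of the fibroblast and mesothelial lists fell to 1, and that of the endothelial list rose to 2, when some single libraries of either line were left out. Their summed levels were 49.4 to 54.8 CPM in PEO1 and 12.1 to 16.7 CPM in PEO4, 30.9 to 37.4 CPM in PEO1 and 35 to 56.8 CPM in PEO4, 3.66 to 4.47 CPM in PEO1 and 8.46 to 12.8 CPM in PEO4 and 583 to 593 CPM in PEO1 and 984 to 1208 CPM in PEO4, in the same order, and the mesothelial list includes MSLN and WT1, which serous carcinoma expresses too. Among the higher members TIE1 measured 0.21 ± 0.167 CPM in PEO1 and 4.39 ± 2.01 CPM in PEO4, CD4 0.0279 ± 0.0483 CPM in PEO1 and 0.981 ± 0.332 CPM in PEO4 and UPK3B 16.9 ± 3.14 CPM in PEO1 and 90.5 ± 17.5 CPM in PEO4 (log2 fold change 2.41, standard error 0.176, edgeR adjusted p = 2.6e-06). The part of any such cells in the results below was not tested. CALB2, the mesothelial protein calretinin, measured 6.53, 5.12 and 5.51 CPM in PEO1 and at most 0.0308 CPM in any PEO4 library.

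Interferon-stimulated genes had the highest called share of the lists with at least 10 tested members. These genes are switched on when the factor ISGF3, which contains STAT2 and IRF9, binds the interferon-stimulated response element, and their products degrade viral RNA, block viral entry and release, or raise the supply of sensors. Of 58 tested members, 56 were higher in PEO4 and 0 were lower, with a median log2 fold change of 2.62, against 12.6% of all genes higher. Their summed level was 3032 to 3293 CPM in the PEO1 libraries and 19315 to 21467 CPM in the PEO4 libraries. The 2 members that were not called were CXCL10, at 0.278 ± 0.037 CPM in PEO1 and 0.314 ± 0.173 CPM in PEO4, and GBP2, at 22 ± 8.27 CPM in PEO1 and 11.9 ± 0.893 CPM in PEO4 (log2 fold change -0.89, standard error 0.23, edgeR adjusted p = 0.008), and GBP2 was called lower when PEO1 replicate 2 or 3 was left out.

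The start sites of 3 of these genes are printed below from RefSeq (GRCh38.p14, strand as given, 250 bases before to 50 bases after the annotated start), because they hold the letters that ISGF3 is known to bind. Capitals mark matches to GAAANNGAAA on either strand, written 5′ to 3′ along the gene's strand. BST2 lies on the minus strand at chr19:17405581-17405880, IFITM1 on the plus strand at chr11:313790-314089, and OAS3 on the plus strand at chr12:112938224-112938523.
BST2: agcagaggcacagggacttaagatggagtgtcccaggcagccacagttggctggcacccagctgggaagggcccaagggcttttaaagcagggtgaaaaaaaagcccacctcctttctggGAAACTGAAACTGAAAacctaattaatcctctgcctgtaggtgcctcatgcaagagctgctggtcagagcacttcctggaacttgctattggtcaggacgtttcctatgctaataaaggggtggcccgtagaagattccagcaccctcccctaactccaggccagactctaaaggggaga
IFITM1: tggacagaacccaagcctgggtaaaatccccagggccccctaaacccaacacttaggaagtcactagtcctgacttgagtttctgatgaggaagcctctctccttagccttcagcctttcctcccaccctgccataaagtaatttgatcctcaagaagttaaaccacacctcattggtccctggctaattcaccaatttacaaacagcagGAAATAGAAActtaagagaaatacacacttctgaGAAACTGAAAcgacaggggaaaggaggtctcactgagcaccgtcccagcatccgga
OAS3: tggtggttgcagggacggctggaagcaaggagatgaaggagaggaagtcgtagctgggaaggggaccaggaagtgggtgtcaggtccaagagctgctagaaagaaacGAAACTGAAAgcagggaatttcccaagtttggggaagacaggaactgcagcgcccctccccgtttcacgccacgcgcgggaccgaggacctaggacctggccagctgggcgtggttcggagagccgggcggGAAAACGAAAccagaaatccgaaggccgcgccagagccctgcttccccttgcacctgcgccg
The letters were found 2 times in each window, and the 2 matches in the BST2 window overlap. Over the list, 32 of 49 members with a promoter in the table held them (65.3%), compared with 996 of all 27305 promoters (3.65%). Among genes called higher in PEO4 the share was 5.86%, or 3.87% without the interferon-stimulated list, and it was 2.32% among genes called lower and 2.44% among genes not called. A match describes the sequence and does not show that a factor was bound there.

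The higher members included effectors, regulators and sensors. Tetherin, encoded by BST2, holds budding virus at the cell surface, and its level was 3.1, 1.81 and 1.77 CPM in PEO1 and 525, 620 and 699 CPM in PEO4 (log2 fold change 8.1, standard error 0.231, edgeR adjusted p = 4.8e-09). IFITM1, which blocks fusion of viral and cell membranes, measured 4.79, 3.04 and 2.52 CPM in PEO1 and 691, 574 and 536 CPM in PEO4 (log2 fold change 7.44, standard error 0.249, edgeR adjusted p = 4.7e-08). No PEO4 library came near a PEO1 library for either gene. The 2′-5′-oligoadenylate synthetases activate RNase L. OAS2 measured 4.25, 2.99 and 2.93 CPM in PEO1 and 428, 484 and 490 CPM in PEO4 (log2 fold change 7.1, standard error 0.147, edgeR adjusted p = 5.6e-12), and OAS3 measured 68, 64.1 and 59.9 CPM in PEO1 and 1073, 1347 and 1253 CPM in PEO4 (log2 fold change 4.26, standard error 0.11, edgeR adjusted p = 1.6e-11). MX1, a GTPase that traps viral nucleocapsids, measured 19.6, 16 and 16.5 CPM in PEO1 and 1361, 1445 and 1460 CPM in PEO4 (log2 fold change 6.35, standard error 0.115, edgeR adjusted p = 1.3e-12). MX1, OAS3, the ubiquitin ligase gene RNF213 at 327 ± 37 CPM in PEO1 and 2183 ± 124 CPM in PEO4 and the secreted LGALS3BP at 691 ± 43 CPM in PEO1 and 3015 ± 385 CPM in PEO4 were among the 10 genes with the greatest gain in CPM in the whole table. Factors that drive the response were higher as well. STAT2 measured 50.7 ± 1.3 CPM in PEO1 and 176 ± 13 CPM in PEO4 (log2 fold change 1.8, standard error 0.0765, edgeR adjusted p = 1.1e-09) and IRF9 52.2 ± 5.95 CPM in PEO1 and 140 ± 6.1 CPM in PEO4 (log2 fold change 1.42, standard error 0.0881, edgeR adjusted p = 3.3e-08). ISG15, a ubiquitin-like modifier, measured 45.7 ± 3.24 CPM in PEO1 and 738 ± 109 CPM in PEO4, and USP18, the protease that removes it and damps the receptor, 10.2 ± 0.289 CPM in PEO1 and 74.2 ± 4.95 CPM in PEO4. IFITM2 and IFITM3 resemble IFITM1 closely, and how reads were shared among them is not stated. The plot of interferon-stimulated genes shows 57 of the 58 members in each library.

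**Figure D2:**
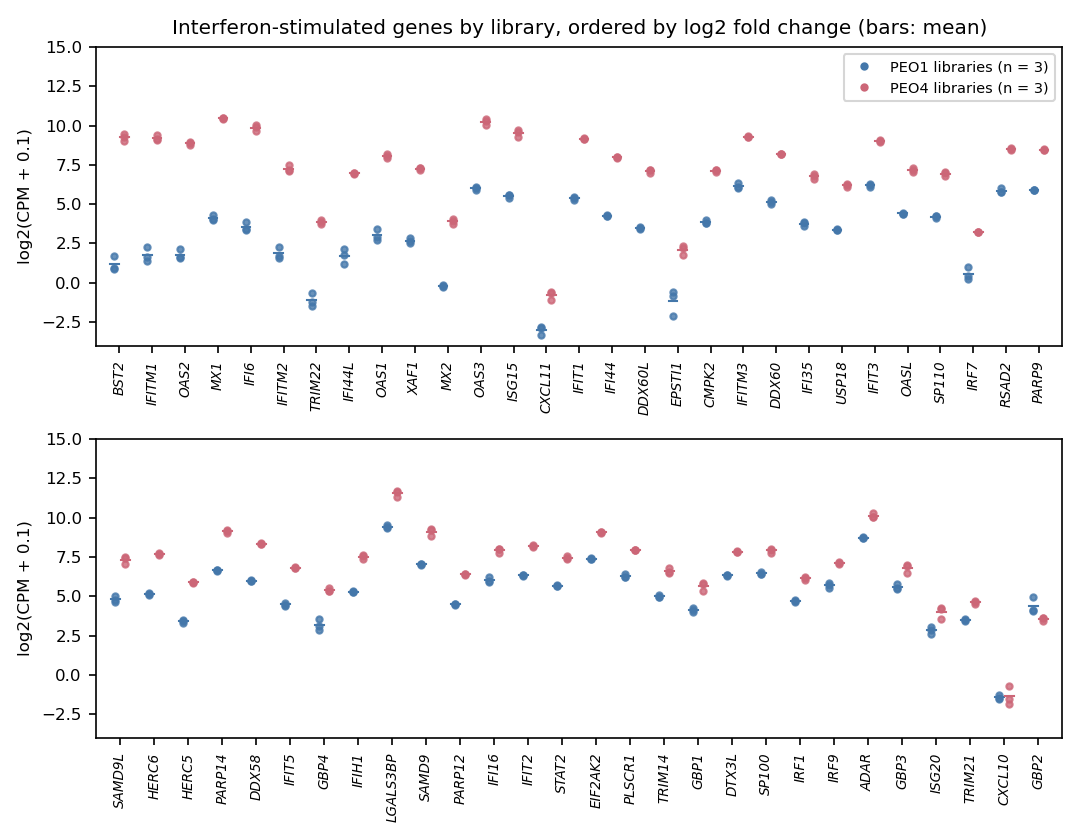
Level of 57 of the 58 tested interferon-stimulated genes (log2 of CPM plus 0.1, y axis) with a point for each of the 3 PEO1 and 3 PEO4 libraries and a bar at their mean, and genes in falling order of log2 fold change along the x axis over both panels. BST2 lies between 1.77 and 3.10 CPM in PEO1 and between 525 and 699 CPM in PEO4, while CXCL10 overlaps and GBP2 is lower in PEO4 in each library.

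Sensors of foreign nucleic acid and the machinery of antigen display were partly higher too. Of 20 nucleic acid sensing genes, 8 were higher and 0 lower. DDX58, which encodes the RNA sensor RIG-I, measured 63.7 ± 0.894 CPM in PEO1 and 329 ± 13.7 CPM in PEO4 (log2 fold change 2.37, standard error 0.0726, edgeR adjusted p = 6e-11), IFIH1, which encodes MDA5, 39.3 ± 1.02 CPM in PEO1 and 183 ± 14.7 CPM in PEO4 (log2 fold change 2.22, standard error 0.080, edgeR adjusted p = 2.7e-10) and TLR3, the endosomal receptor for double-stranded RNA, 4.96 ± 1.21 CPM in PEO1 and 23.3 ± 3.15 CPM in PEO4 (log2 fold change 2.23, standard error 0.176, edgeR adjusted p = 4e-07). DDX58 and IFIH1 also belong to the interferon-stimulated list. The DNA sensor CGAS measured 15.6 ± 1.53 CPM in PEO1 and 36.1 ± 1.32 CPM in PEO4 and was called higher. The adaptors lying downstream of these sensors were not called: STING1 was at 95.1 ± 9.33 CPM in PEO1 and 105 ± 6.89 CPM in PEO4 and MAVS at 277 ± 15.2 CPM in PEO1 and 156 ± 10 CPM in PEO4. Of 19 genes for MHC class I molecules and peptide loading, 13 were higher and 0 lower. HLA-B measured 96, 93.1 and 95.3 CPM in PEO1 and 332, 386 and 388 CPM in PEO4 (log2 fold change 1.96, standard error 0.082, edgeR adjusted p = 9.5e-10) and HLA-C 124 ± 4.37 CPM in PEO1 and 485 ± 17.9 CPM in PEO4 (log2 fold change 1.97, standard error 0.0748, edgeR adjusted p = 4.3e-10). TAP2, which pumps peptides into the endoplasmic reticulum, measured 7.34 ± 0.637 CPM in PEO1 and 32.6 ± 1.0 CPM in PEO4 (log2 fold change 2.15, standard error 0.105, edgeR adjusted p = 4e-09). B2M, the light chain of class I molecules, was at 88.9 ± 1.15 CPM in PEO1 and 156 ± 19.1 CPM in PEO4 and stayed under the fold threshold. Class II genes were low, and their chaperone CD74 was lower in PEO4, at 47.1 ± 0.537 CPM in PEO1 and 8.27 ± 2.74 CPM in PEO4 (log2 fold change -2.49, standard error 0.204, edgeR adjusted p = 4.9e-06). Values in the MHC region of chromosome 6 are uncertain, since TUBB and BRD2, which lie there and which every dividing cell uses, were at 0.63 ± 0.0906 CPM in PEO1 and 0.619 ± 0.209 CPM in PEO4 and 1.29 ± 0.206 CPM in PEO1 and 2.3 ± 0.299 CPM in PEO4, and the MHC is also present on alternate scaffolds of the genome build.

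The HOX genes, which fix position along the body axis and give the Müllerian duct its regions, differed cluster by cluster. All 9 tested genes of the HOXC cluster were lower in PEO4, with a median log2 fold change of -9.27 and a summed level of 129 to 139 CPM in PEO1 against 6.95 to 9.38 CPM in PEO4. HOXC10 measured 75, 68.3 and 65.3 CPM in PEO1 and 0, 0 and 0 CPM in PEO4, at least 935-fold lower. HOXC12 measured 11.4, 13.8 and 11.8 CPM in PEO1 and 0, 0 and 0 CPM in PEO4, at least 166-fold lower, and HOXC8 measured 5.75, 5.15 and 4.4 CPM in PEO1 with no count in PEO4. The 3′ end of the cluster kept some expression: HOXC4 measured 17.6 ± 1.42 CPM in PEO1 and 7.42 ± 1.14 CPM in PEO4 (log2 fold change -1.25, standard error 0.135, edgeR adjusted p = 4.8e-06) and HOXC6 5.04 ± 0.298 CPM in PEO1 and 0.495 ± 0.167 CPM in PEO4 (log2 fold change -3.31, standard error 0.261, edgeR adjusted p = 2.7e-07). The long non-coding RNA HOTAIR, transcribed from within the cluster, was at 1.61, 0.694 and 1.67 CPM in PEO1 and had no count in PEO4.

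The HOXB cluster was split. HOXB2, HOXB3 and HOXB4, at its 3′ end, were higher in PEO4, and the tested genes further 5′, HOXB5 to HOXB9, were lower. HOXB3 measured 116, 105 and 107 CPM in PEO1 and 348, 353 and 384 CPM in PEO4 (log2 fold change 1.73, standard error 0.0779, edgeR adjusted p = 1.9e-09), HOXB2 124 ± 3.11 CPM in PEO1 and 329 ± 30 CPM in PEO4 (log2 fold change 1.4, standard error 0.0824, edgeR adjusted p = 2e-08) and HOXB4 63.8 ± 7.0 CPM in PEO1 and 151 ± 19.9 CPM in PEO4 (log2 fold change 1.24, standard error 0.108, edgeR adjusted p = 1e-06). HOXB6 measured 14.6 ± 1.57 CPM in PEO1 and 0.916 ± 0.537 CPM in PEO4 (log2 fold change -4.05, standard error 0.286, edgeR adjusted p = 3.3e-07), HOXB9 7.98 ± 0.459 CPM in PEO1 and 0.13 ± 0.0478 CPM in PEO4 (log2 fold change -6.0, standard error 0.268, edgeR adjusted p = 1.8e-09), and HOXB8 measured 5.61, 7.05 and 5.84 CPM in PEO1 and had no count in PEO4, a fold of at least 82.9. The direction within HOXB therefore followed position in the cluster. In the HOXA cluster 5 of 7 tested genes were lower and 1 higher, HOXA7 at 0.278 CPM in PEO1 and 0.682 CPM in PEO4, which was not called without PEO1 replicate 1, PEO1 replicate 2 or PEO4 replicate 3 (edgeR adjusted p from 0.0554 to 0.0814). The lower genes included HOXA3 at 11, 9.26 and 9.73 CPM in PEO1 and without a count in PEO4 (at least 134-fold lower), and both tested HOXD genes were lower. Reads were counted by gene symbol and the strand setting is not stated, so neighbouring HOX antisense genes cannot be told from the genes they overlap. The plot of HOX levels shows the split within HOXB and the loss of HOXC.

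**Figure D3:**
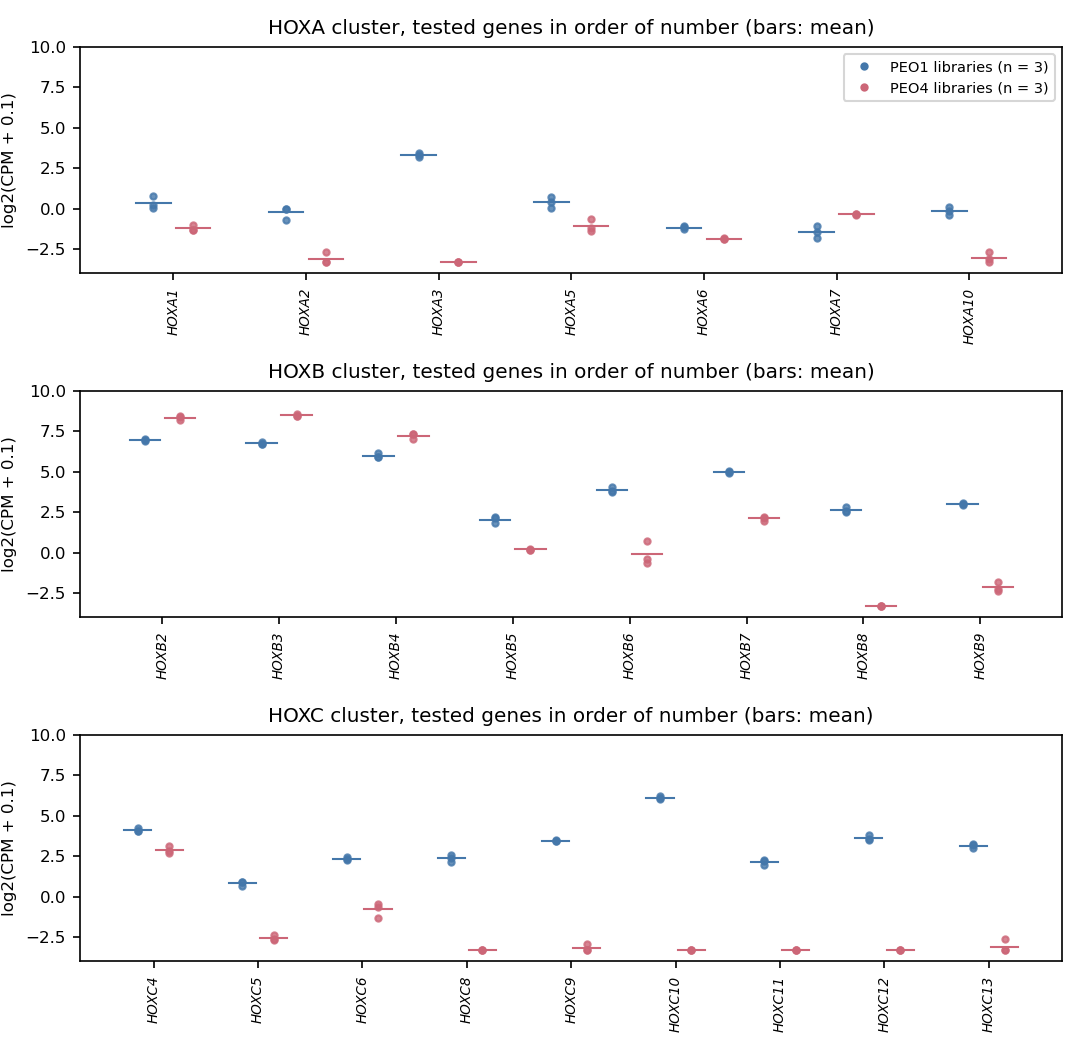
Level of each tested gene of the HOXA, HOXB and HOXC clusters, 1 panel each (log2 of CPM plus 0.1, y axis), with a point for each of the 3 PEO1 and 3 PEO4 libraries, a bar at their mean, and genes in order of paralogue number along the x axis. HOXB2 to HOXB4 are higher in PEO4, HOXB5 to HOXB9 are lower, and every HOXC gene is lower.

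Genes of the mesenchymal state, in which carcinoma cells take on the cytoskeleton and matrix of fibroblasts, were lower in PEO4 more often than higher. Of 33 tested mesenchymal genes, 21 were lower and 2 higher in PEO4, with a median log2 fold change of -2.11, and their summed level was 4850 to 5017 CPM in PEO1 and 1056 to 1531 CPM in PEO4. VIM, the intermediate filament vimentin, measured 322, 290 and 291 CPM in PEO1 and 0.37, 0.993 and 0.459 CPM in PEO4 (log2 fold change -9.05, standard error 0.219, edgeR adjusted p = 4.1e-10). The adhesive matrix protein fibronectin, FN1, measured 375, 481 and 439 CPM in PEO1 and 19, 29.4 and 30.6 CPM in PEO4 (log2 fold change -4.04, standard error 0.196, edgeR adjusted p = 3.1e-07), and the hyaluronan receptor CD44 measured 680, 676 and 648 CPM in PEO1 and 16.3, 45.5 and 30.5 CPM in PEO4 (log2 fold change -4.45, standard error 0.424, edgeR adjusted p = 0.00043). No PEO4 library of these 3 genes reached a PEO1 library. TGFBI, a matrix protein induced by TGF-beta, measured 273 ± 9.49 CPM in PEO1 and 1.24 ± 0.506 CPM in PEO4 (log2 fold change -7.88, standard error 0.218, edgeR adjusted p = 2.7e-09), and the matrix glycoprotein SPARC 639 ± 38.6 CPM in PEO1 and 87.2 ± 29.4 CPM in PEO4 (log2 fold change -2.88, standard error 0.267, edgeR adjusted p = 0.00011). CDH11, a cadherin of mesenchymal cells, had 2.34, 3.58 and 2.56 CPM in PEO1 and no count in PEO4, at least 38-fold lower, and FAP, a protease of activated fibroblasts, was at least 209-fold lower. The receptor kinase AXL measured 193 ± 7.47 CPM in PEO1 and 28.5 ± 6.79 CPM in PEO4 (log2 fold change -2.76, standard error 0.148, edgeR adjusted p = 1.4e-07) and N-cadherin, CDH2, 9.4 ± 1.04 CPM in PEO1 and 1.89 ± 0.248 CPM in PEO4 (log2 fold change -2.3, standard error 0.176, edgeR adjusted p = 2.1e-07). SNAI2, which encodes the repressor Slug, measured 2.37 ± 0.528 CPM in PEO1 and 0.0103 ± 0.0178 CPM in PEO4 and was at least 31.8-fold lower. ZEB1 and ZEB2 were too low in both lines to be tested, TWIST1 was at 6.63 CPM in PEO1 and 7.77 CPM in PEO4 on average and was not called, and S100A4 at 3.3 ± 0.91 CPM in PEO1 and 9.42 ± 1.75 CPM in PEO4 (log2 fold change 1.51, standard error 0.212, edgeR adjusted p = 5.1e-05) was higher. FN1 and TGFBI are shared with the matrix lists below.

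Epithelial adhesion genes moved in both directions. Of 46 tested genes of epithelial junctions and their regulators, 5 were higher and 8 lower. The called share of 28.3% was near the 25.8% of all genes. E-cadherin, CDH1, measured 192 ± 10.9 CPM in PEO1 and 149 ± 4.17 CPM in PEO4 (log2 fold change -0.37, standard error 0.0718, edgeR adjusted p = 0.00066). TJP3 at tight junctions measured 14.9 ± 1.9 CPM in PEO1 and 62.2 ± 5.11 CPM in PEO4 (log2 fold change 2.05, standard error 0.108, edgeR adjusted p = 7.5e-09), and DSC3, a desmosomal cadherin, 151 ± 12.4 CPM in PEO1 and 455 ± 27.4 CPM in PEO4 (log2 fold change 1.59, standard error 0.0853, edgeR adjusted p = 8.8e-09). Placental cadherin, CDH3, measured 258, 211 and 202 CPM in PEO1 and 14.5, 16 and 15.9 CPM in PEO4 (log2 fold change -3.86, standard error 0.106, edgeR adjusted p = 2.5e-11), and the epithelial transcription factor EHF 88.8 ± 5.79 CPM in PEO1 and 5.0 ± 1.05 CPM in PEO4 (log2 fold change -4.13, standard error 0.135, edgeR adjusted p = 2.1e-10). Both of these were lower in every PEO4 library. Keratins, the intermediate filaments of epithelium, were lower in 13 of 20 cases and higher in 2. KRT7, a keratin of simple epithelium, measured 1987, 1863 and 1906 CPM in PEO1 and 274, 311 and 295 CPM in PEO4 (log2 fold change -2.71, standard error 0.0887, edgeR adjusted p = 1.1e-10) and the basal keratin KRT5 654 ± 57.4 CPM in PEO1 and 23.6 ± 0.916 CPM in PEO4 (log2 fold change -4.79, standard error 0.0976, edgeR adjusted p = 2.3e-12). KRT81, a hair keratin with close relatives in KRT83 and KRT86 beside it, measured 3007, 2876 and 2991 CPM in PEO1 and 40.7, 58.2 and 50.8 CPM in PEO4 (log2 fold change -5.89, standard error 0.143, edgeR adjusted p = 1e-11), which made it the gene with the greatest loss in CPM. KRT4 measured 107 ± 6.88 CPM in PEO1 and 782 ± 77.4 CPM in PEO4 (log2 fold change 2.87, standard error 0.0973, edgeR adjusted p = 1.6e-10) and KRT17 11.7 ± 0.827 CPM in PEO1 and 55.4 ± 12.1 CPM in PEO4 (log2 fold change 2.24, standard error 0.145, edgeR adjusted p = 1.1e-07), and both were higher. KRT8, KRT18 and KRT19, which simple epithelium makes too, were not called, at 1920 ± 50.6 CPM in PEO1 and 1399 ± 161 CPM in PEO4, 1154 ± 48.6 CPM in PEO1 and 699 ± 64.3 CPM in PEO4 and 1612 CPM in PEO1 and 2354 CPM in PEO4 respectively.

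Genes of squamous differentiation moved both ways, 9 of 26 higher and 10 lower. TGM3 and SCEL, a transglutaminase and a component of the cornified envelope, were higher: SCEL measured 7.24, 6.73 and 5.86 CPM in PEO1 and 59, 120 and 116 CPM in PEO4 (log2 fold change 3.89, standard error 0.326, edgeR adjusted p = 0.00011) and TGM3 was at least 168-fold higher at 0.0303 ± 0.0274 CPM in PEO1 and 11.1 ± 4.07 CPM in PEO4. The filament-aggregating protein filaggrin, FLG, measured 443, 139 and 132 CPM in PEO1 and 11.2, 8.76 and 7.81 CPM in PEO4, and repetin, RPTN, had 9.29, 8.81 and 8.49 CPM in PEO1 and no count in PEO4. CALML3 was between 151 and 228 CPM in PEO1 and at most 0.918 CPM in PEO4. TP63, the master factor of basal epithelium, was low but higher, at 0.267 ± 0.227 CPM in PEO1 and 5.32 ± 1.44 CPM in PEO4. Among the S100 and annexin genes 5 of 24 were higher and 7 lower, with ANXA3 at 96.5 ± 5.14 CPM in PEO1 and 5.92 ± 0.782 CPM in PEO4 (log2 fold change -4.04, standard error 0.108, edgeR adjusted p = 2e-11) and S100A9 at 20.3 ± 1.71 CPM in PEO1 and 3.02 ± 1.12 CPM in PEO4 (log2 fold change -2.79, standard error 0.244, edgeR adjusted p = 3.4e-06). Among kallikreins and serpins 5 of 25 were higher and 9 lower, with the protease inhibitor SERPINE2 at 242 ± 44.7 CPM in PEO1 and 8.95 ± 1.43 CPM in PEO4 (log2 fold change -4.77, standard error 0.167, edgeR adjusted p = 7.6e-09) and the complement inhibitor SERPING1 at 32.2 ± 3.13 CPM in PEO1 and 122 ± 5.98 CPM in PEO4 (log2 fold change 1.92, standard error 0.0865, edgeR adjusted p = 1.9e-09). Among mucins and the enzymes that build their sugar chains, 7 of 37 were higher, including GALNT9 at 0.119 ± 0.0569 CPM in PEO1 and 18.7 ± 2.81 CPM in PEO4 (log2 fold change 7.3, standard error 0.263, edgeR adjusted p = 2.7e-10), and 12 were lower.

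The matrix that the lines make differed in composition. Collagens were called in 23 of 29 cases, 8 higher and 15 lower. The chains of basement membrane collagen IV were lower as a family: COL4A1 measured 74.8, 69.6 and 65.9 CPM in PEO1 and 0.216, 0.227 and 0.122 CPM in PEO4 (log2 fold change -8.47, standard error 0.158, edgeR adjusted p = 1.5e-12) and COL4A2, its partner transcribed from the opposite strand of the same promoter region, 128, 114 and 110 CPM in PEO1 and 0.108, 0.199 and 0.153 CPM in PEO4 (log2 fold change -9.64, standard error 0.158, edgeR adjusted p = 7.2e-13). COL4A3 to COL4A6 were lower as well. COL22A1 measured 18.6, 16.4 and 17.7 CPM in PEO1 and had no count in PEO4, at least 236-fold lower. In the opposite direction, COL9A1 had no count in PEO1 and 4.18, 4.82 and 5.85 CPM in PEO4, at least 74.5-fold higher, COL23A1 measured 0.917 ± 0.126 CPM in PEO1 and 55.9 ± 14.8 CPM in PEO4 (log2 fold change 5.94, standard error 0.226, edgeR adjusted p = 6.4e-09), and COL6A2 lay at most at 0.586 CPM in PEO1 and at 76.2, 93.8 and 103 CPM in PEO4. COL6A1 and COL6A2 lie next to each other on chromosome 21, whose genes as a whole are described below.

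Matricellular proteins and proteoglycans, which tune how cells attach to matrix, were lower in 21 of 43 cases and higher in 10. THBS1, thrombospondin 1, measured 1099, 738 and 698 CPM in PEO1 and 8.89, 10 and 9.24 CPM in PEO4 (log2 fold change -6.5, standard error 0.204, edgeR adjusted p = 5.9e-09). The small proteoglycan biglycan, BGN, had the greatest gain in CPM of all genes, at 523, 619 and 579 CPM in PEO1 and 3220, 3668 and 3672 CPM in PEO4 (log2 fold change 2.62, standard error 0.103, edgeR adjusted p = 5.5e-10). Fibulin 2, FBLN2, measured 0.126 ± 0.0547 CPM in PEO1 and 11.2 ± 2.5 CPM in PEO4 (log2 fold change 6.4, standard error 0.301, edgeR adjusted p = 2.8e-09) and the chondroitin sulfate proteoglycan CSPG4 1.49 ± 0.0488 CPM in PEO1 and 69 ± 10 CPM in PEO4 (log2 fold change 5.53, standard error 0.139, edgeR adjusted p = 1.3e-11), both higher. Matrix proteases and their inhibitors were higher in 8 and lower in 13 of 43 cases. ADAMTS1, which cleaves proteoglycans and lies on chromosome 21, measured 3.72, 5.07 and 4.96 CPM in PEO1 and 315, 296 and 314 CPM in PEO4 (log2 fold change 6.07, standard error 0.119, edgeR adjusted p = 1.8e-12), MMP14, a membrane-bound collagenase, 0.759 ± 0.0963 CPM in PEO1 and 10.6 ± 0.675 CPM in PEO4 (log2 fold change 3.8, standard error 0.183, edgeR adjusted p = 3.5e-09), and the serine protease TMPRSS4 3.47 ± 1.1 CPM in PEO1 and 107 ± 2.16 CPM in PEO4 (log2 fold change 4.93, standard error 0.186, edgeR adjusted p = 1.4e-08). MMP7 was at 14.3, 3.31 and 3.83 CPM in PEO1, 1 library standing well above the other 2, and at most 0.0616 CPM in PEO4. Laminins and integrins were called about equally in both directions, 10 higher and 9 lower of 33, with ITGA9 at 1.13 ± 0.255 CPM in PEO1 and 12.6 ± 2.17 CPM in PEO4 (log2 fold change 3.49, standard error 0.209, edgeR adjusted p = 2.4e-08) and ITGA4 at 15.7 ± 1.18 CPM in PEO1 and 1.47 ± 0.599 CPM in PEO4 (log2 fold change -3.45, standard error 0.226, edgeR adjusted p = 7.4e-08). ITGB6, whose product activates latent TGF-beta, measured 245, 231 and 228 CPM in PEO1 and 17.9, 73.2 and 65.4 CPM in PEO4, with PEO4 replicate 1 far below the other 2, and its call as lower was lost without any 1 PEO1 library or without PEO4 replicate 3 (edgeR adjusted p from 0.0631 to 0.0742).

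Ligands and receptors of growth and patterning pathways differed in both directions. In the EGF, FGF and related receptor tyrosine kinase group 13 of 62 were higher and 21 lower. ERBB4, a receptor for neuregulins, measured 0.335, 0.214 and 0.132 CPM in PEO1 and 206, 135 and 163 CPM in PEO4 (log2 fold change 9.53, standard error 0.268, edgeR adjusted p = 4.2e-09), while EGFR measured 421 CPM in PEO1 and 78.3 CPM in PEO4 on average (log2 fold change -2.43) and was called lower. EREG, a ligand of both, measured 0.209, 0.854 and 0.564 CPM in PEO1 and 11.9, 38.7 and 25.6 CPM in PEO4 (log2 fold change 5.58, standard error 0.689, edgeR adjusted p = 0.001). FGFR1 was at 22.2 CPM in PEO1 and 3.07 CPM in PEO4 and was also lower, and IGFBP5, which binds insulin-like growth factors, lay between 242 and 361 CPM in PEO1 and at most at 2.08 CPM in PEO4. The other FGF receptors did not follow FGFR1: FGFR3 was at 1.47 CPM in PEO1 and 67.7 CPM in PEO4 (log2 fold change 5.5) and FGFR4 at 6.65 CPM in PEO1 and 18.7 CPM in PEO4 (log2 fold change 1.49), both higher, and FGFR2 at 82.2 CPM in PEO1 and 68.7 CPM in PEO4 and not called.

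WNT ligands, receptors and feedback genes were called in 26 of 46 cases, 13 in each direction. LGR6, a receptor for R-spondins, measured 16.2 ± 2.15 CPM in PEO1 and 132 ± 10.3 CPM in PEO4 (log2 fold change 3.02, standard error 0.106, edgeR adjusted p = 2.2e-10), and APCDD1, which dampens WNT signals, 2.45 ± 0.208 CPM in PEO1 and 37.9 ± 9.79 CPM in PEO4 (log2 fold change 3.96, standard error 0.187, edgeR adjusted p = 8.1e-09). The ligands WNT7A, at 29.1 ± 1.55 CPM in PEO1 and 1.23 ± 0.513 CPM in PEO4 (log2 fold change -4.59, standard error 0.206, edgeR adjusted p = 3.6e-09), and WNT5B, at 15.2 ± 6.76 CPM in PEO1 and 0.176 ± 0.0928 CPM in PEO4 (log2 fold change -6.48, standard error 0.448, edgeR adjusted p = 1.4e-06), and the secreted inhibitor DKK1, at 7.74 ± 0.778 CPM in PEO1 and 0.228 ± 0.0665 CPM in PEO4 (log2 fold change -5.15, standard error 0.26, edgeR adjusted p = 5.2e-09), were lower. WNT7B was at 135 CPM in PEO1 and 27 CPM in PEO4 and lower, whereas WNT11 was at 3.2 CPM in PEO1 and 17.5 CPM in PEO4 and higher. In the TGF-beta, BMP and activin group 7 of 55 were higher and 15 lower. The higher share of 12.7% was near the 12.6% of all genes, and the lower share was 27.3% against 13.1%. BMP7 measured 2.09, 1.44 and 0.977 CPM in PEO1 and 366, 306 and 350 CPM in PEO4 (log2 fold change 7.83, standard error 0.216, edgeR adjusted p = 2.7e-09), and ID4, a target of BMP signals, 77.4, 59.2 and 57.5 CPM in PEO1 and 714, 792 and 796 CPM in PEO4 (log2 fold change 3.57, standard error 0.121, edgeR adjusted p = 2.5e-10). INHBA, the subunit of activin A, measured 211, 211 and 220 CPM in PEO1 and 0.324, 0.34 and 0.673 CPM in PEO4 (log2 fold change -8.99, standard error 0.158, edgeR adjusted p = 1.3e-12), and TGFB2 was at least 33.2-fold lower at 2.47 ± 0.979 CPM in PEO1 and 0.0307 ± 0.0306 CPM in PEO4. TGFB1 was lower as well, at 105 CPM in PEO1 and 26.6 CPM in PEO4 (log2 fold change -1.98). TGFB3 went the other way, at 4.67 CPM in PEO1 and 9.67 CPM in PEO4 (log2 fold change 1.06), and had 0.95 without PEO1 replicate 1 and 0.97 without PEO4 replicate 1, both under the fold threshold. BMP2 was lower, at 5.6 CPM in PEO1 and 1.3 CPM in PEO4, so ligands of 1 family did not share a direction.

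Notch pathway genes were higher in 8 and lower in 5 of 24 cases. The receptor NOTCH3 measured 79.1 CPM in PEO1 and 261 CPM in PEO4 on average and was called higher, the target gene HES4 2.34 ± 0.105 CPM in PEO1 and 22.9 ± 6.82 CPM in PEO4 (log2 fold change 3.29, standard error 0.224, edgeR adjusted p = 2.6e-07) and HEYL 0.513 ± 0.312 CPM in PEO1 and 4.6 ± 0.404 CPM in PEO4 (log2 fold change 3.12, standard error 0.343, edgeR adjusted p = 6e-06), while the ligand JAG1 measured 10.2 ± 1.72 CPM in PEO1 and 1.32 ± 0.203 CPM in PEO4 (log2 fold change -2.92, standard error 0.198, edgeR adjusted p = 7e-08). Targets of YAP and TEAD, which respond to cell shape and tension, were lower in 12 of 30 cases and higher in 1. CCN1 measured 220 ± 14.4 CPM in PEO1 and 63.8 ± 11.2 CPM in PEO4 (log2 fold change -1.79, standard error 0.114, edgeR adjusted p = 9.1e-08), CCN2 152 ± 15.6 CPM in PEO1 and 46.8 ± 8.69 CPM in PEO4 (log2 fold change -1.7, standard error 0.132, edgeR adjusted p = 1.4e-06) and IGFBP3 411 ± 23.8 CPM in PEO1 and 54.5 ± 36 CPM in PEO4 (log2 fold change -2.92, standard error 0.644, edgeR adjusted p = 0.015), the last of which was not called without PEO4 replicate 3 (log2 fold change -2.94, edgeR adjusted p = 0.0609). YAP1 itself was at 247 CPM in PEO1 and 294 CPM in PEO4 and was not called. Of the MAPK feedback and immediate early genes, 6 of 38 were higher and 5 lower, or 3 lower without PEO1 replicate 1 or without PEO4 replicate 1. Their called share of 28.9% was near the 25.8% of all genes. DUSP4, a phosphatase that switches ERK off, measured 80, 84.1 and 84.1 CPM in PEO1 and 1.91, 4.59 and 3.73 CPM in PEO4 (log2 fold change -4.66, standard error 0.276, edgeR adjusted p = 3.9e-06), and PHLDA1 96.3 ± 4.4 CPM in PEO1 and 387 ± 107 CPM in PEO4 (log2 fold change 2.01, standard error 0.198, edgeR adjusted p = 5.5e-05). The steroid receptor and estrogen target group had 6 of 23 higher and 4 lower. ESR1, the estrogen receptor alpha, was at 229 ± 12.9 CPM in PEO1 and 359 ± 9.81 CPM in PEO4 and was not called, and CA12, a carbonic anhydrase induced by estrogen, measured 119 ± 3.68 CPM in PEO1 and 3.9 ± 0.363 CPM in PEO4 (log2 fold change -4.92, standard error 0.0957, edgeR adjusted p = 1.8e-12).

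Transcription factors that define lineages were called in 36 of 56 cases, 13 higher and 23 lower. EMX2 and TBX18, which act in development of the urogenital tract, were higher: EMX2 measured 36.8 ± 2.45 CPM in PEO1 and 147 ± 5.38 CPM in PEO4 (log2 fold change 2.0, standard error 0.0768, edgeR adjusted p = 4.7e-10) and TBX18 6.71 ± 0.707 CPM in PEO1 and 62.7 ± 3.22 CPM in PEO4 (log2 fold change 3.22, standard error 0.104, edgeR adjusted p = 9.5e-11). MEIS2, a cofactor of HOX proteins, measured 57, 53.2 and 53.6 CPM in PEO1 and 0.154, 0.227 and 0.245 CPM in PEO4 (log2 fold change -8.1, standard error 0.156, edgeR adjusted p = 1.8e-12), and EYA2 measured 13.4, 6.75 and 5.73 CPM in PEO1 and 0, 0 and 0 CPM in PEO4, at least 116-fold lower. Forkhead genes were lower in 14 and higher in 6 of 34 cases. FOXL1 measured 9.98, 12 and 12.3 CPM in PEO1 and at most 0.0308 CPM in PEO4, and FOXF2 16.5, 14.6 and 13.3 CPM and at most 0.122 CPM. FOXQ1 measured 26.7 ± 7.87 CPM in PEO1 and 125 ± 12.9 CPM in PEO4 (log2 fold change 2.22, standard error 0.197, edgeR adjusted p = 2.9e-05) and FOXE1 0.175 ± 0.0703 CPM in PEO1 and 5.92 ± 0.853 CPM in PEO4 (log2 fold change 5.06, standard error 0.303, edgeR adjusted p = 2.3e-08), both higher. The lower members include FOXF2 and FOXL1, known from mesenchyme, and FOXM1, a regulator of mitosis, which is given with the cell cycle below.

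Imprinted genes, expressed from 1 parental copy, were higher in 4 and lower in 5 of 27 cases, a share of 33.3% called. PEG3 measured 11.3, 11.4 and 11.5 CPM in PEO1 and 0, 0 and 0 CPM in PEO4, at least 153-fold lower, and DIRAS3, an imprinted growth inhibitor of ovarian epithelium, measured 80.2, 59.7 and 65.1 CPM in PEO1 and 0.863, 2.27 and 1.47 CPM in PEO4 (log2 fold change -5.56, standard error 0.294, edgeR adjusted p = 1.2e-06). MAGEL2 was at least 26.1-fold lower. MEST measured 606, 670 and 666 CPM in PEO1 and 2139, 1941 and 1909 CPM in PEO4 (log2 fold change 1.62, standard error 0.089, edgeR adjusted p = 1.1e-08), and IGF2 had no count in PEO1 and 0.354, 1.93 and 2.2 CPM in PEO4. Cancer-testis antigens were mostly silent: 113 of 120 listed were too low to be tested, and of the other 7, 3 were higher and 2 lower.

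Genes better known from neurons were called in both directions. Of 62 synaptic adhesion molecules and receptors, 25 were lower and 11 higher. The GABA receptor subunit gene GABRA5 measured 24.4, 23.8 and 21.1 CPM in PEO1 and 0.247, 0.369 and 0.0918 CPM in PEO4 (log2 fold change -6.57, standard error 0.236, edgeR adjusted p = 2.6e-10). LRRTM1, an organizer of synapses, was higher, with at most 0.214 CPM in PEO1 and 11.6, 16.9 and 18.7 CPM in PEO4. Axon guidance cues and receptors were higher in 13 and lower in 15 of 67 cases. The cue NTN1 measured 155, 155 and 144 CPM in PEO1 and 0.74, 0.737 and 1.29 CPM in PEO4 (log2 fold change -7.42, standard error 0.15, edgeR adjusted p = 2.8e-12), the receptor NRP1 147, 135 and 128 CPM in PEO1 and 1.11, 2.16 and 0.918 CPM in PEO4 (log2 fold change -6.65, standard error 0.221, edgeR adjusted p = 1.3e-08) and SLIT3 85.1 ± 12.1 CPM in PEO1 and 1.36 ± 0.573 CPM in PEO4 (log2 fold change -5.87, standard error 0.235, edgeR adjusted p = 4.5e-08), whereas SEMA3A measured 29.4 ± 2.79 CPM in PEO1 and 166 ± 19.3 CPM in PEO4 (log2 fold change 2.5, standard error 0.101, edgeR adjusted p = 7.9e-10) and SEMA4A 4.4 ± 1.55 CPM in PEO1 and 49.8 ± 4.26 CPM in PEO4 (log2 fold change 3.52, standard error 0.206, edgeR adjusted p = 3.1e-07). NTN1, NRP1 and SLIT3 were therefore lower, and the semaphorins SEMA3A and SEMA4A higher.

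Voltage-gated ion channels were called in 35 of 52 cases, 15 higher and 20 lower. The potassium channel genes KCNQ3, at 28.6 ± 11.9 CPM in PEO1 and 0.476 ± 0.0995 CPM in PEO4 (log2 fold change -5.96, standard error 0.377, edgeR adjusted p = 2e-06), and KCNH3, at 7.28 ± 1.99 CPM in PEO1 and 0.419 ± 0.0349 CPM in PEO4 (log2 fold change -4.12, standard error 0.267, edgeR adjusted p = 4.8e-08), were lower, and the T-type calcium channel gene CACNA1I, at 6.72 ± 1.05 CPM in PEO1 and 29.1 ± 4.2 CPM in PEO4 (log2 fold change 2.11, standard error 0.143, edgeR adjusted p = 7.3e-08), was higher. Of the clustered protocadherins, which neurons use to tell themselves from their neighbours, 8 of 52 were higher and 2 lower, a smaller called share (19.2%) than that of all genes, and their shared exons make counts of single members uncertain. Other cadherins were called in 18 of 31 cases. PCDH7 measured 1.09, 1.71 and 1.73 CPM in PEO1 and 92.1, 105 and 122 CPM in PEO4 (log2 fold change 6.14, standard error 0.172, edgeR adjusted p = 2e-10), and CDHR1 measured 0.627, 0.48 and 0.545 CPM in PEO1 and 132, 38.4 and 46.7 CPM in PEO4, with PEO4 replicate 1 well above the others. CDH4 was at least 96.9-fold lower.

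Genes that handle platinum and other drugs were inspected because PEO4 is the cisplatin-resistant line. Of 19 platinum transport genes, 1 was higher and 5 lower, a called share of 31.6% against 25.8% of all genes. SLC22A3, an organic cation transporter, measured 424, 392 and 393 CPM in PEO1 and 0.308, 0.51 and 0.306 CPM in PEO4 (log2 fold change -10.11, standard error 0.143, edgeR adjusted p = 1.9e-13), and its relative SLC22A2, also on chromosome 6, was lower as well, from a mean of 1.02 CPM in PEO1. SLC47A2, which exports organic cations, was at most 0.169 CPM in PEO1 and 7.15, 6.38 and 6.7 CPM in PEO4. The copper transporters that also carry platinum were not called: SLC31A1, for entry, was at 42.3 ± 2.05 CPM in PEO1 and 40.4 ± 3.39 CPM in PEO4, ATP7A, for export, at 13.7 ± 3.72 CPM in PEO1 and 20.3 ± 1.66 CPM in PEO4 and ATP7B at 8.98 ± 0.54 CPM in PEO1 and 10.1 ± 0.667 CPM in PEO4. ABC transporters were lower in 8 and higher in 4 of 32 cases. ABCB1, the drug efflux pump P-glycoprotein, was at 0.435 ± 0.328 CPM in PEO1 and 0.253 ± 0.129 CPM in PEO4 and not called, ABCC4 was higher at 7.95 ± 1.24 CPM in PEO1 and 20.7 ± 5.51 CPM in PEO4 (log2 fold change 1.39, standard error 0.186, edgeR adjusted p = 5e-05), and ABCB4 was lower at 2.39 ± 0.338 CPM in PEO1 and 0.241 ± 0.086 CPM in PEO4 (log2 fold change -3.32, standard error 0.346, edgeR adjusted p = 3.5e-06). The largest fold changes in the list were thus those of organic cation carriers, and none of SLC31A1, ATP7A and ATP7B was called.

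Glutathione binds platinum, and its synthesis starts with an enzyme of a catalytic and a modifier subunit. The catalytic subunit GCLC was higher, at 20.4, 21.2 and 20.8 CPM in PEO1 and 75.8, 62.6 and 60.4 CPM in PEO4 (log2 fold change 1.67, standard error 0.0976, edgeR adjusted p = 1.9e-08), and the modifier GCLM lower, at 170, 162 and 154 CPM in PEO1 and 27.7, 42.5 and 36.4 CPM in PEO4 (log2 fold change -2.19, standard error 0.135, edgeR adjusted p = 2.3e-07). GPX4, which protects lipids from peroxidation, measured 191 ± 7.37 CPM in PEO1 and 86.9 ± 4.29 CPM in PEO4 (log2 fold change -1.14, standard error 0.0718, edgeR adjusted p = 3.8e-08), and GGT6 was at most 0.107 CPM in PEO1 and 25.5, 27.3 and 26.8 CPM in PEO4. Across the group 5 of 32 were higher and 3 lower, a called share of 25% and near the 25.8% of all genes. Among NRF2 targets 4 of 30 were higher and 8 lower, a called share of 40%. HMOX1, heme oxygenase 1, measured 34, 43.7 and 41.8 CPM in PEO1 and 1.54, 3.18 and 2.27 CPM in PEO4 (log2 fold change -4.14, standard error 0.225, edgeR adjusted p = 1.3e-07), and the carbonyl reductase CBR1, on chromosome 21, 2.26, 2.62 and 2.44 CPM in PEO1 and 28.9, 26.6 and 25.7 CPM in PEO4 (log2 fold change 3.47, standard error 0.124, edgeR adjusted p = 2.6e-10). Aldehyde dehydrogenases and aldo-keto reductases were called in 14 of 30 cases, 7 in each direction. ALDH1A3, which makes retinoic acid, measured 1257, 1244 and 1217 CPM in PEO1 and 9.03, 31.3 and 16.6 CPM in PEO4 (log2 fold change -6.05, standard error 0.556, edgeR adjusted p = 0.00048), while ALDH3B2 measured 6.32, 5.12 and 4.43 CPM in PEO1 and 85.4, 78.4 and 90.7 CPM in PEO4 (log2 fold change 4.0, standard error 0.127, edgeR adjusted p = 9.3e-11) and ALDH3A1 0.648 ± 0.317 CPM in PEO1 and 11 ± 2.38 CPM in PEO4 (log2 fold change 4.13, standard error 0.291, edgeR adjusted p = 1.8e-07). The other enzymes that make retinoic acid were low, ALDH1A1 at 0.718 CPM in PEO1 and 0.19 CPM in PEO4 and lower, and ALDH1A2 at 0.088 CPM in PEO1 and 0.544 CPM in PEO4 and higher, a call that was lost without PEO4 replicate 3 (edgeR adjusted p = 0.0523). Metallothioneins, which bind metals, were lower in 5 of 9 cases, or in 3 without PEO4 replicate 1, and higher in 0, or in 1 without PEO1 replicate 2. MT1M measured 35.4 ± 2.43 CPM in PEO1 and 2.95 ± 1.77 CPM in PEO4 (log2 fold change -3.64, standard error 0.36, edgeR adjusted p = 0.00012). Cytochrome P450 genes were called in 16 of 29 cases, with CYP24A1, which degrades vitamin D, at 225, 178 and 171 CPM in PEO1 and 2.4, 2.72 and 2.48 CPM in PEO4 (log2 fold change -6.24, standard error 0.134, edgeR adjusted p = 4.9e-12) and CYP4B1 at 1.94 ± 0.272 CPM in PEO1 and 35.1 ± 4.3 CPM in PEO4 (log2 fold change 4.19, standard error 0.147, edgeR adjusted p = 2.2e-10).

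Genes of cell death and stress gave a mixed picture. In the BCL2 family and among caspases 8 of 36 were higher and 7 lower. CASP1, the inflammasome caspase, measured 1.21, 1.15 and 0.676 CPM in PEO1 and 12.7, 14.1 and 16.4 CPM in PEO4 (log2 fold change 3.84, standard error 0.215, edgeR adjusted p = 1.3e-08), and CASP8, the initiator of death receptor signals, 11.9, 10.5 and 10.2 CPM in PEO1 and 56.5, 61 and 58.3 CPM in PEO4 (log2 fold change 2.43, standard error 0.0931, edgeR adjusted p = 4.6e-10). The BH3-only killers BIK, at 18.6 ± 2.28 CPM in PEO1 and 2.83 ± 0.444 CPM in PEO4 (log2 fold change -2.71, standard error 0.155, edgeR adjusted p = 1.6e-08), and HRK, at 10.7 ± 0.257 CPM in PEO1 and 0.582 ± 0.19 CPM in PEO4 (log2 fold change -4.2, standard error 0.214, edgeR adjusted p = 5.7e-09), were lower. Of p53 targets 6 of 32 were higher and 4 lower, a called share of 31.25% against 25.8% of all genes. CDKN1A, the cell cycle inhibitor p21, was at 4.86 ± 0.706 CPM in PEO1 and 12.4 ± 1.91 CPM in PEO4 (log2 fold change 1.35, standard error 0.162, edgeR adjusted p = 1.2e-05). The integrated stress and unfolded protein responses had 5 of 36 lower and 0 higher. Their lower share of 13.9% was near the 13.1% of all genes. Among the lower members were ATF3 at 18.7 ± 0.684 CPM in PEO1 and 5.3 ± 0.468 CPM in PEO4 (log2 fold change -1.82, standard error 0.122, edgeR adjusted p = 6.3e-08) and TRIB3 at 44 ± 1.52 CPM in PEO1 and 14.9 ± 1.76 CPM in PEO4 (log2 fold change -1.56, standard error 0.102, edgeR adjusted p = 5.3e-08). Heat shock chaperones were higher in 6 and lower in 5 of 29 cases, with HSP90AB1 at 1371, 1378 and 1385 CPM in PEO1 and 4225, 3812 and 3420 CPM in PEO4 (log2 fold change 1.47, standard error 0.0983, edgeR adjusted p = 6.3e-08), the second greatest gain in CPM, and HSPA2 at 28.3 ± 1.82 CPM in PEO1 and 4.7 ± 0.869 CPM in PEO4 (log2 fold change -2.61, standard error 0.141, edgeR adjusted p = 9.9e-09).

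Among NF-kB targets, chemokines and cytokines 14 of 36 were lower and 6 higher, and the higher count was 3 when PEO1 replicate 1, PEO4 replicate 2 or PEO4 replicate 3 was left out. The list shares CXCL10 and CXCL11 with the interferon-stimulated list, and CXCL11 is 1 of its 6 higher genes. CSF1, the growth factor of macrophages, measured 198, 197 and 195 CPM in PEO1 and 3.07, 4.08 and 4.71 CPM in PEO4 (log2 fold change -5.67, standard error 0.133, edgeR adjusted p = 1.4e-11), the neutrophil chemokine CXCL8 9.9 ± 0.589 CPM in PEO1 and 1.12 ± 0.424 CPM in PEO4 (log2 fold change -3.21, standard error 0.251, edgeR adjusted p = 2.8e-07) and CXCL1 5.12 ± 0.283 CPM in PEO1 and 0.804 ± 0.455 CPM in PEO4 (log2 fold change -2.75, standard error 0.355, edgeR adjusted p = 3.5e-05). Complement and coagulation genes were lower in 12 and higher in 6 of 32 cases, with clusterin, CLU, at 6.88, 5.66 and 6.16 CPM in PEO1 and 404, 451 and 487 CPM in PEO4 (log2 fold change 6.16, standard error 0.114, edgeR adjusted p = 1.5e-12), complement factor B, CFB, at 0.807 ± 0.224 CPM in PEO1 and 7.34 ± 0.782 CPM in PEO4 (log2 fold change 3.19, standard error 0.232, edgeR adjusted p = 1.4e-07), and C1S at 8.68 ± 0.78 CPM in PEO1 and 0.659 ± 0.356 CPM in PEO4 (log2 fold change -3.84, standard error 0.336, edgeR adjusted p = 1.6e-06). Of the Schlafen genes 1 of 6 was called, SLFN11, which blocks stressed replication forks and sensitizes cells to platinum, at 46.4 CPM in PEO1 and 12.1 CPM in PEO4 and lower (log2 fold change -1.94).

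Of the metabolic lists, cholesterol synthesis was called in 33.3% of members and amino acid and glucose transporters in 40.5%, against 25.8% of all genes. Fatty acid genes were near that share at 26.8%, and glycolysis and the hypoxia response below it at 20%. Of 24 cholesterol synthesis genes 8 were lower and 0 higher, with a median log2 fold change of -0.86. Their master regulator SREBF2 measured 253 ± 20.1 CPM in PEO1 and 105 ± 7.61 CPM in PEO4 (log2 fold change -1.27, standard error 0.0845, edgeR adjusted p = 6e-08), and the isomerase IDI1 137 ± 10.7 CPM in PEO1 and 50.7 ± 0.388 CPM in PEO4 (log2 fold change -1.43, standard error 0.0762, edgeR adjusted p = 8.4e-09). Fatty acid genes were higher in 6 and lower in 5 of 41 cases, or lower in 3 without PEO4 replicate 3. PPARGC1A, a coactivator of mitochondrial genes, measured 0.46, 0.801 and 0.489 CPM in PEO1 and 15.2, 11.4 and 13.1 CPM in PEO4 (log2 fold change 4.53, standard error 0.224, edgeR adjusted p = 4.4e-09), and the nuclear receptor PPARG 20, 20.3 and 21.4 CPM in PEO1 and 1.02, 1.93 and 1.1 CPM in PEO4 (log2 fold change -3.96, standard error 0.203, edgeR adjusted p = 6.9e-09). In glycolysis and the hypoxia response 5 of 40 were higher and 3 lower: the hexokinase HK2 measured 56.1 ± 2.96 CPM in PEO1 and 180 ± 36.5 CPM in PEO4 (log2 fold change 1.68, standard error 0.132, edgeR adjusted p = 1.5e-06), the lactate exporter SLC16A3 152 ± 4.65 CPM in PEO1 and 433 ± 107 CPM in PEO4 (log2 fold change 1.51, standard error 0.16, edgeR adjusted p = 2.9e-05), and EPAS1, which encodes HIF-2alpha, 136, 171 and 171 CPM in PEO1 and 18.7, 24.8 and 19.3 CPM in PEO4 (log2 fold change -2.93, standard error 0.129, edgeR adjusted p = 6.9e-09). Amino acid and glucose transporters were lower in 13 and higher in 4 of 42 cases, and SLC16A7, a carrier of pyruvate and lactate, measured 2.05, 1.55 and 1.62 CPM in PEO1 and 116, 106 and 122 CPM in PEO4 (log2 fold change 6.04, standard error 0.12, edgeR adjusted p = 1.8e-12). Nuclear genes of oxidative phosphorylation, by contrast, had 1 of 76 higher, or 2 without any 1 PEO4 library, and 0 lower.

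The machinery that all dividing cells share was mostly called less often than the 25.8% of all genes. The exception was replication-dependent histones, with 47.4% of tested members called. Ribosomal protein genes were called in 3 of 83 cases, or in 2 without PEO4 replicate 2, and ribosome biogenesis in 2 of 45, or in 1 without PEO4 replicate 1 or 3. The median log2 fold change of the ribosomal protein genes was -0.32. Their summed level was 62420 to 71611 CPM in PEO1 and 53343 to 58060 CPM in PEO4. RPL38 measured 150 ± 9.37 CPM in PEO1 and 345 ± 4.91 CPM in PEO4 (log2 fold change 1.2, standard error 0.0745, edgeR adjusted p = 3.3e-08), the 1 ribosomal protein gene that was higher. In mitosis 0 of 46 were higher and 6 were lower, with a median log2 fold change of -0.40. FOXM1, which drives the mitotic programme, measured 369, 443 and 412 CPM in PEO1 and 132, 171 and 137 CPM in PEO4 (log2 fold change -1.47, standard error 0.108, edgeR adjusted p = 2e-07), and the phosphatase CDC25B 184, 183 and 181 CPM in PEO1 and 60.7, 56.1 and 54.5 CPM in PEO4 (log2 fold change -1.67, standard error 0.0716, edgeR adjusted p = 1.2e-09). MKI67, the proliferation marker, was at 317 ± 10.3 CPM in PEO1 and 224 ± 16.3 CPM in PEO4 (log2 fold change -0.50, standard error 0.0773, edgeR adjusted p = 0.00011). In DNA replication 1 of 43 was higher and 3 were lower. The lower count was 1 without PEO4 replicate 3, and the higher count was 2, with MCM3, without any 1 of PEO1 replicates 2 and 3 and PEO4 replicates 2 and 3. PCNA, the sliding clamp, measured 140, 146 and 166 CPM in PEO1 and 56.9, 63.6 and 54.9 CPM in PEO4 (log2 fold change -1.37, standard error 0.087, edgeR adjusted p = 4.1e-08). The G-quadruplex helicases and telomere genes had 4 of 35 members higher and 2 lower. TERT, the catalytic subunit of telomerase, measured 1.09, 0.587 and 0.958 CPM in PEO1 and 9.09, 6.49 and 6.89 CPM in PEO4 (log2 fold change 3.08, standard error 0.244, edgeR adjusted p = 3e-07), the helicase gene RECQL4 70.5 ± 11 CPM in PEO1 and 163 ± 6.05 CPM in PEO4 (log2 fold change 1.21, standard error 0.104, edgeR adjusted p = 7.8e-07) and RECQL 96.1 ± 7.09 CPM in PEO1 and 45.4 ± 2.21 CPM in PEO4 (log2 fold change -1.08, standard error 0.0795, edgeR adjusted p = 1.5e-07). DNA methylation and Polycomb genes had 3 of 40 higher and 1 lower, the last being BMI1 at 5.5 ± 0.44 CPM in PEO1 and 1.75 ± 0.53 CPM in PEO4 (log2 fold change -1.67, standard error 0.23, edgeR adjusted p = 4e-05). Replication-dependent histone genes were higher in 9 of 19 cases and lower in 0, or lower in 2, H2BC18 and H4C3, without PEO4 replicate 1, with a summed level of 15.9 to 21.9 CPM in PEO1 and 45.4 to 57.4 CPM in PEO4. Their main transcripts lack a poly(A) tail and the libraries were selected for poly(A), so these levels are of the minor tailed forms. ACTB, the actin gene often used as a reference, was itself lower, at 2116, 2296 and 2230 CPM in PEO1 and 680, 1015 and 943 CPM in PEO4 (log2 fold change -1.33, standard error 0.132, edgeR adjusted p = 3.3e-06), beside the actin crosslinker FLNA at 2354 ± 84.7 CPM in PEO1 and 862 ± 175 CPM in PEO4 (log2 fold change -1.45, standard error 0.132, edgeR adjusted p = 1.6e-06).

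Families were also read by shared symbol stems, without chosen lists. Of 210 stems with at least 10 tested genes, HOXB and HOXC were the 2 in which every gene was called, with antisense genes of the same stem included. COL followed at 79.3%, KRT at 77.3%, CDH at 72.7% with 0 higher and 8 lower of 11, and CACNA at 69.2%. SOX had 1 higher and 6 lower of 11, and WNT 1 higher and 7 lower of 13. KCNJ, the inward rectifier potassium channels, ran the other way with 6 higher and 0 lower of 10. There were 20 stems with no called gene.

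Promoters were searched for runs of guanine because the study concerns G-quadruplexes, 4-stranded DNA structures that form where 4 runs of at least 3 guanines lie close together. The search took 4 runs of GGG, or of CCC on the other strand, parted by 1 to 7 bases, within the 300 bases around each start. Such letters stood in 34.4% of the 12226 promoters of tested genes, in 34.7% of those called higher in PEO4, in 41.5% of those called lower and in 33.1% of those not called. The median GC content was 64% for higher, 66.3% for lower and 65% for genes not called. In the same order the shares were 16.3%, 17.1% and 11.7% among promoters of 50 to 60% GC, 38.6%, 40.0% and 29.0% at 60 to 70% GC, and 60.5%, 68.8% and 60.6% at 70% GC or more. The promoters of COL4A1 and TGFBI, 2 genes that were nearly absent from PEO4, are printed as examples from genes called lower. Capitals mark the first match in each window. Further along, the TGFBI window holds more runs of guanine that also meet the rule and are left in lower case. COL4A1 lies on the minus strand at chr13:110307108-110307407 and TGFBI on the plus strand at chr5:136028738-136029037.
COL4A1: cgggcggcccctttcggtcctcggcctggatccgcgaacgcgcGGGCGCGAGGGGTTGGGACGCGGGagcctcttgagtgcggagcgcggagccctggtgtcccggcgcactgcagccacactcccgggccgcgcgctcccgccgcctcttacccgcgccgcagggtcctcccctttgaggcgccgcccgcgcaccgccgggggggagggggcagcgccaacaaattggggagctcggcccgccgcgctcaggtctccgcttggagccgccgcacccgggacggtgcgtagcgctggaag
TGFBI: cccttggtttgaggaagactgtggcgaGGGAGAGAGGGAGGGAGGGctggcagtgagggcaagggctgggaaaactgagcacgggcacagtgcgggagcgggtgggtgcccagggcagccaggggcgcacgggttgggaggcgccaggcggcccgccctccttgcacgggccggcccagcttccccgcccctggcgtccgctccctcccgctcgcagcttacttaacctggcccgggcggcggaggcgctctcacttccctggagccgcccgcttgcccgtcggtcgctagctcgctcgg
The promoters of VIM, INHBA and MEIS2, which were lost from PEO4 to a like degree, held no such match in this window, and that of ERBB4, which was gained, held one. Whether any of these sequences folded in the cells was not measured in these libraries.

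Called genes were unevenly spread over the chromosomes. On chromosome 21, 39.3% of 140 tested genes were higher and 5.0% lower, the median log2 fold change was 0.88, and 85% of all its genes, called or not, lay above 0. Chromosome 6 had 30.4% of 698 genes higher, with a median of 0.52, and 29.5% and 0.50 when the interferon and MHC lists were left out. Chromosome 17 had 18.9% higher. On the lower side were chromosome 22 with 23.2%, chromosome 20 with 21.3% and chromosome 15 with 19.1%. CBR1, ADAMTS1, COL6A1, COL6A2 and MX1 lie on chromosome 21, and SLC22A3, HSP90AB1, BMP5, ID4 and the MHC genes on chromosome 6. Both lines are aneuploid cancer lines, gene copy number was not measured here, and its part in these shares was not tested. The plot of chromosomes gives these shares, and the medians for both untreated pairs.

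**Figure D4:**
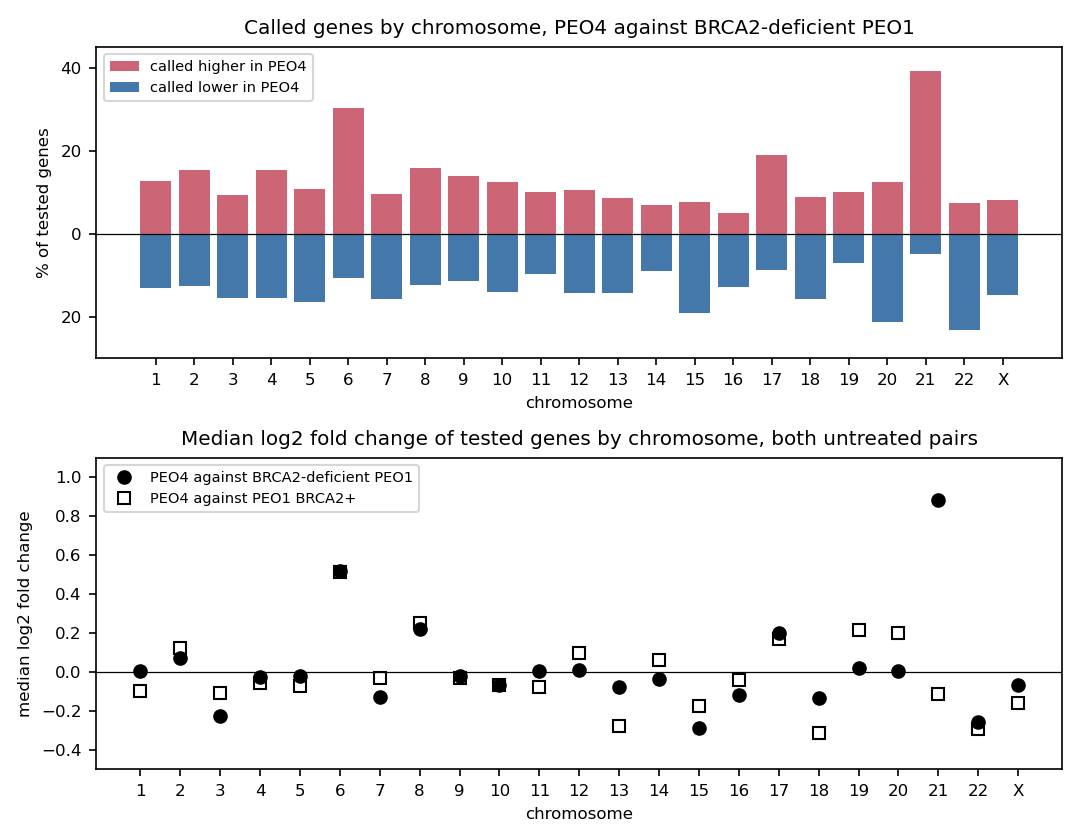
The upper panel gives the share of tested genes on each chromosome (percent, y axis) called higher (up) or lower (down) in PEO4 than in BRCA2-deficient PEO1, and the lower panel the median log2 fold change of all tested genes on each chromosome (y axis) in that pair (filled circles) and in the pair of PEO4 and PEO1 BRCA2+ (open squares). Chromosome 21 stands out with 39.3% higher and medians of 0.88 and -0.11, and chromosome 6 has 30.4% higher and medians of 0.52 and 0.51.

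In 11 stretches of the genome at least 9 of 10 neighbouring tested genes were called in the same direction (positions in hg38, from the RefSeq GRCh38.p14 annotation). The HOXC cluster formed one on chromosome 12, from 53708517 to 54188985, with 16 of 18 tested genes lower. The type II keratins formed another on the same chromosome, from 52065300 to 52848994, with 12 of 14 lower, where KRT4 was the exception on the higher side. On chromosome 1, from 239386568 to 245125229, 13 of 15 genes were lower. They included EXO1, FH, which encodes the Krebs cycle enzyme fumarase, at 113 ± 2.37 CPM in PEO1 and 39.9 ± 4.65 CPM in PEO4 (log2 fold change -1.5, standard error 0.0885, edgeR adjusted p = 2.1e-08), and FMN2, an actin nucleator, at 130, 133 and 133 CPM in PEO1 and 0.247, 0.624 and 0.184 CPM in PEO4 (log2 fold change -8.61, standard error 0.20, edgeR adjusted p = 2.9e-11). On chromosome 3, from 167735721 to 170085392, 9 of 10 were lower, among them MECOM, TERC, the RNA template of telomerase, and GOLIM4 at 130 ± 10.9 CPM in PEO1 and 47.9 ± 1.7 CPM in PEO4 (log2 fold change -1.45, standard error 0.0799, edgeR adjusted p = 1.2e-08). On chromosome 22, from 42617840 to 43812305, 10 of 11 were lower, including BIK, and on chromosome 20, from 1113263 to 1940592, 9 of 10, including FKBP1A at 379 ± 10.6 CPM in PEO1 and 114 ± 8.28 CPM in PEO4 (log2 fold change -1.73, standard error 0.0785, edgeR adjusted p = 2e-09).

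Of the other stretches, 5 were higher in PEO4. On chromosome 17, from 72403322 to 74776345, 13 of 15 were called higher, with COG1, a subunit of a Golgi tethering complex, at 10.4, 10.3 and 10.3 CPM in PEO1 and 48.2, 48.6 and 48.1 CPM in PEO4 (log2 fold change 2.23, standard error 0.086, edgeR adjusted p = 4.9e-10) and RPL38. On chromosome 6, from 43522334 to 44253883, 10 of 12 were higher, among them VEGFA at 115 ± 10.3 CPM in PEO1 and 292 ± 82.5 CPM in PEO4 (log2 fold change 1.35, standard error 0.213, edgeR adjusted p = 0.0012), the GTP-binding protein gene GTPBP2 at 26.4 ± 1.29 CPM in PEO1 and 84.6 ± 3.27 CPM in PEO4 (log2 fold change 1.68, standard error 0.0771, edgeR adjusted p = 2.3e-09), and HSP90AB1. The remaining 2 on chromosome 6, from 28324737 to 31158197 with 14 of 16 higher and from 31946095 to 33314078 with 9 of 10 higher, lie in and next to the MHC and share its uncertainty. The latter had 7 of 10 called without any 1 of the libraries other than PEO1 replicate 1. The stretch that holds VEGFA had no more than 8 called among 10 neighbours without any 1 library other than PEO1 replicate 1, that on chromosome 22 without PEO1 replicate 2 or PEO4 replicate 2, and that on chromosome 20 without PEO1 replicate 1 or PEO4 replicate 2. On chromosome 8, from 142611049 to 143281700, 12 of 14 were higher, among them LY6D and PSCA, which encode small surface proteins of 1 family. LY6D measured 0.0418, 0.107 and 0.113 CPM in PEO1 and 7.57, 13.4 and 13.7 CPM in PEO4 (log2 fold change 7.0, standard error 0.373, edgeR adjusted p = 1.3e-08) and PSCA 0.447 ± 0.0263 CPM in PEO1 and 2.7 ± 0.383 CPM in PEO4 (log2 fold change 2.59, standard error 0.277, edgeR adjusted p = 4.3e-06).

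PEO4 was also compared with PEO1 BRCA2+ cells in the second, separately prepared untreated pair, which shares no library with the first. There 11.9% of 15726 tested genes were higher and 11.8% lower, 23.7% in all. Of the 2009 genes higher against BRCA2-deficient PEO1, 1684 were tested there, and 941 were higher there too. The 941 are 55.9% of those tested there, 46.8% of this list and 50.3% of the other, and 39 were lower there. Of the 2086 lower genes, 1802 were tested there, and 1093 were lower there too. The 1093 are 60.7% of those tested there, 52.4% of this list and 58.9% of the other, and 66 were higher there. The pairs differ in BRCA2 status of PEO1, in the sodium pyruvate added for the first pair, in preparation and in depth at once. These cannot be told apart, and differences between the pairs were not tested.

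The families differed in how many of their calls both pairs shared. Of the 56 interferon-stimulated genes, 47 were called higher in both pairs, and BST2 had log2 fold changes of 8.1 against BRCA2-deficient PEO1 and 9.66 against PEO1 BRCA2+. HOXB2 and HOXB3 were higher and HOXB6, HOXB8 and HOXB9 lower in both, and 7 of the 9 HOXC genes were lower in both. COL4A1 had -8.47 and -6.69, FOLR1 7.53 and 8.28, and NTN1 -7.42 and -7.52. Of the 14 lower genes of the NF-kB list 11 were lower in both, but none of its 6 higher genes was higher in both. Both pairs shared 5 of the 13 higher genes of MHC class I and peptide loading, 1 of the 8 lower genes of cholesterol synthesis, 2 of the 12 lower mucins and O-glycan enzymes, and 0 of the 8 higher clustered protocadherins. Single genes had unlike values as well. VIM had log2 fold changes of -9.05 and -0.12, since it measured 15.1 CPM in PEO1 BRCA2+ cells and 14 CPM in the PEO4 cells beside them. CYP24A1 had -6.24 and 0.44, NOTCH3 1.72 and -0.32, TERT 3.08 and 0.39, and EPAS1 -2.93 and 0.40. On chromosome 21 the shares higher were 39.3% and 9.66%, and on chromosome 6 30.4% and 27.1%. The plot of both pairs shows the named genes side by side.

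**Figure D5:**
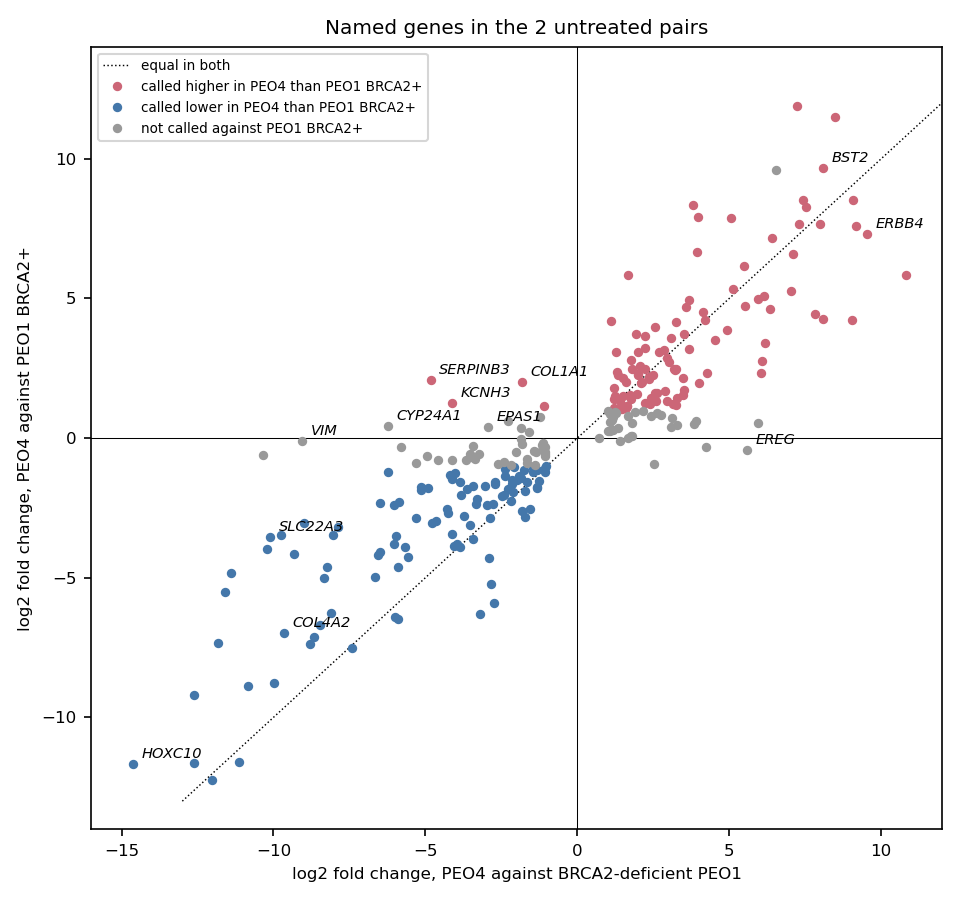
Log2 fold change of PEO4 over BRCA2-deficient PEO1 (x axis) and of PEO4 over PEO1 BRCA2+ (y axis) for the 278 named genes tested in both pairs, each point 1 gene. Of these, 101 were called higher and 102 lower in both, 4 were lower in the first and higher in the second, and fitted values of genes without counts in 1 line depend on the prior count.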

How the data were processed

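RNA of 3 PEO1 and 3 PEO4 cultures, untreated, was sequenced from poly(A)-selected, directional libraries. Per the labels and the submitters' processing notes, reads were checked with FastQC, trimmed with fastp, aligned to hg38 with STAR and assigned to genes with featureCounts, and the authors deposited whole-number counts per gene symbol without normalization. Tool versions, the annotation and the strand setting are not given in the sources used here, so overlapping, antisense and near-identical genes may share reads. Lines without readable counts were left out (2 for this pair, 1 for the pair with PEO1 BRCA2+).

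Counts were fitted with edgeR 4.0.16 (R 4.3.3): filterByExpr with a minimum count of 10, TMM scaling, and the robust quasi-likelihood test with line as the only term, with Benjamini-Hochberg adjustment over all 15882 tested genes. The fit was checked on simulated counts with known changes. Alternatives were DESeq2 1.42.0, other scalings and filters, other thresholds, a replicate block, and leaving out each library. The 70 gene lists were written by hand from known functions, and they and the members were chosen with earlier results of these data known. For each list with 3 or more called members, up to 3 genes in each direction with the largest fold change were named, among those whose groups did not overlap and whose higher group averaged at least 1 CPM. Also named were BRCA2, the 10 genes in each direction with the largest difference in CPM, and genes of the chromosome stretches, with pseudogenes and microRNA genes passed over. Any further gene was named after its values were seen. Promoter windows and positions came from RefSeq GRCh38.p14 tables, where 27621 of 28277 symbols had a position. Values of a few single genes are not reported here, although they count in the totals of their lists.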

Additional observations from a re-analysis of the deposited data

Results flagged for a closer look

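For 10 named genes, every PEO4 library lay on one side of BRCA2-deficient PEO1 and on the opposite side of PEO1 BRCA2+ in the other untreated pair. The difference between the pairs was not tested, and BRCA2 status, added sodium pyruvate, preparation and depth differ between them at once. The log2 fold changes of PEO4, given as BRCA2-deficient PEO1 and then PEO1 BRCA2+, were as follows. COL1A1, the main fibrillar collagen chain, had -1.83 and 1.99. SERPINB3, a squamous protease inhibitor with the close relative SERPINB4, had -4.83 and 2.07. The potassium channel gene KCNH3 had -4.12 and 1.26, and the MAPK phosphatase gene DUSP10 had -1.10 and 1.16, although DUSP10 lost its call when 1 library was left out. These 4 were called in both pairs. The other 6 were called against BRCA2-deficient PEO1 and not against PEO1 BRCA2+. They were the resection factor gene RBBP8 with -1.59 and 0.21, the EGFR ligand gene EREG with 5.58 and -0.43, IGFBP4 with -1.24 and 0.76, the protocadherin gene PCDHA5 with -2.27 and 0.62, EPAS1 with -2.93 and 0.40, and the spectrin gene SPTBN1 with -1.86 and 0.37.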

How the results depend on the processing

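The main count of 2009 genes higher and 2086 lower became 4775 and 5012 with the adjusted p alone and 746 and 1013 with a log2 fold change beyond 2. Leaving out 1 library gave 1929 to 2054 higher and 2048 to 2226 lower. DESeq2 gave 1998 and 2048, RLE size factors 2030 and 2075, upper-quartile scaling 2179 and 1971, library totals 2044 and 2070, no filter on low counts 2183 and 2295, and a minimum of 1 CPM 1639 and 1699. With the replicate number as a block the counts were 1953 and 2064. Same-numbered libraries did not deviate together (correlations of -0.04, 0.03 and -0.01), so the numbers were not taken to pair them. The BRCA2 log2 fold change ranged from 0.56 to 0.83 and was not called under any alternative that kept the fold threshold, although its adjusted p alone passed. Among the genes described as called, none changed direction under these scalings, filters, tools and left-out libraries. With the fold threshold kept, ITGB6, IGFBP3, DUSP10, TGFB3, HOXA7 and ALDH1A2 lost their call in at least 1 fit that left out a library. GINS2, RPL35A and ENO1, for which no values are given, lost theirs under upper-quartile scaling (GINS2 and RPL35A) or the replicate block (ENO1). GINS2 also lost its call without PEO1 replicate 3, PEO4 replicate 2 or PEO4 replicate 3. ENO1 also lost its call without PEO1 replicate 2, PEO4 replicate 2 or PEO4 replicate 3. No values are given either for GINS4, GADD45A, MT1E, NFKB1, FABP3, CA9, RPL22L1 and HLA-DRB1. Each of these lost its call in at least 1 fit that left out a library. Of 140 counts of list members in 1 direction, 17 moved by over 1.5 times with the minimum of 1 CPM, which tests fewer genes, 10 with upper-quartile scaling, 5 without a filter, 2 with DESeq2, and 1 each with RLE size factors, library totals and the replicate block. With 3 libraries per line, p-values measure the spread between cultures of 1 line, and genes under about 1 CPM rest on few counts.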
